A study of Saccharomyces cerevisiae with 5 samples.

Results

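The genes described here are those of the yeast proteasome and of its transcriptional regulator Rpn4. They were taken by name from the gene column of the authors' deposited table of transcription start site clusters, and 33 of the 5009 genes of that table belong to the set: 14 genes of the core particle, 18 of the regulatory particle and RPN4. All 33 had clusters, and all reached 10 CPM (reads scaled by the authors to a common library total) in at least 1 library, as did 4904 of the 5009 genes. A gene's CPM is the sum of the clusters that the deposited table assigns to it.

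The proteasome degrades proteins that carry ubiquitin. Its core particle is a barrel of alpha rings, which gate the entry, and beta rings, which hold the proteolytic sites, and its regulatory particle consists of a base with a ring of ATPases that unfold substrates and a lid that removes ubiquitin. In yeast most subunit genes share a promoter element called PACE (proteasome-associated control element), which is bound by Rpn4, an activator that is itself a short-lived substrate of the proteasome, so that a shortage of proteasome activity raises Rpn4 and with it the subunit genes.

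The study grew 2 Saccharomyces cerevisiae strains, BY_DEH+ and BY_DEH++, on different carbon sources and sequenced the capped 5′ ends of their RNA by cap analysis of gene expression (CAGE). DEH (4-deoxy-L-erythro-5-hexoseulose uronate) is the monomer released when alginate of brown algae is digested, and mannitol is a sugar alcohol of the same algae. The sources used here give the strains by name only, with no genotype. Each of the 5 groups is 1 library from 1 culture of 10 mL, shaken at 30 °C with 1% (w/v) carbon source after preculture on YPGA plates. BY_DEH+ in DEH went from an OD600 of 0.2 to 0.63 in 3 days, and BY_DEH+ in glucose went from 0.05 to 0.91 overnight. BY_DEH++ in DEH went from 0.05 to 0.55 in 2 days, BY_DEH++ in glucose from 0.05 to 0.95 overnight, and BY_DEH++ in mannitol from 0.02 to 0.79 in 1 day. Carbon source, time in culture and cell density therefore cannot be told apart. The labels of the DEH and glucose libraries end in AGT, ACC, TAC and GCG, while the mannitol label has no such ending. The labels do not say whether the mannitol library was made apart from the others. Such a difference could not be told apart from mannitol.

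Depth was 9.43 to 19.9 M reads per library, so that 1 read was worth 0.0503 to 0.106 CPM and 10 CPM stood for 94 to 199 reads. With 1 library per group there is no replicate error and no test. Ratios are given with 95% intervals from the 2 read counts, which cover counting error only, and a gene is called higher or lower when its log2 ratio of CPM + 1 reaches 2-fold. RNA per cell was not measured, so a lower CPM is a lower share of the capped RNA.

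The promoters of the subunit genes carry the element named above. PACE, searched as GGTGGCAAA on both strands from 250 bases before to 50 bases after the first base of the coding sequence in the R64 genome, was found in 27 of 32 subunit genes (84.4%) and in 72 of 6007 genes of the genome (1.20%). The 8-base core GTGGCAAA, which every PACE contains, was found in 30 of the 32 subunit genes (93.8%) and in 144 of the 6007 genes (2.40%). PRE5, PUP1 and RPN8 held the core without the full element, and RPN10 and RPN13, which encode ubiquitin receptors, held neither. A match of letters is a description and not a shown binding site, and its absence from this window says nothing about Rpn4. The stretches below are shown because they let the shared 9 letters be read in genes of every subcomplex, and because the 3 genes with the core alone can be set beside them. Each is read 5′ to 3′ on the strand of its gene in R64, with 15 bases on each side and the element in capitals, and it appears as TTTGCCACC where it lies in the opposite direction.
SCL1 (chrVII:475332-475370, minus): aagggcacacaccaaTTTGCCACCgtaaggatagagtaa
PRE10 (chrXV:1018851-1018889, minus): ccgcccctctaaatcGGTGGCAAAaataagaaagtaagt
PUP3 (chrV:349506-349544, minus): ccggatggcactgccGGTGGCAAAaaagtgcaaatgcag
RPT3 (chrIV:1261490-1261528, plus): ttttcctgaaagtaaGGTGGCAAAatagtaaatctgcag
RPT4 (chrXV:813797-813835, minus): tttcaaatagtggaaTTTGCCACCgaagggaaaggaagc
RPN1 (chrVIII:164833-164871, minus): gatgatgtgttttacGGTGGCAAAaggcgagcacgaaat
RPN5 (chrIV:190771-190809, plus): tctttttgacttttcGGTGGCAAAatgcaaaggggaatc
RPN11 (chrVI:153254-153292, plus): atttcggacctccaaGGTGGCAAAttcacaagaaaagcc
PRE5, core only (chrXIII:901548-901585, plus): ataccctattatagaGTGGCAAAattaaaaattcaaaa
PUP1, core only (chrXV:631886-631923, minus): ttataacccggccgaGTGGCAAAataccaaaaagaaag
RPN8, core only (chrXV:817080-817117, minus): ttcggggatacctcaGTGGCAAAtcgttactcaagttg

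Each of the 27 genes held 1 PACE. It was in the direction of the gene in 19 and in the opposite direction in 8, and its first base lay at positions -183 to -84 from the first base of the coding sequence, with a median of -120. The strongest start cluster of a gene, the one with the highest CPM, lay downstream of it: 23 of the 27 elements were wholly upstream of that cluster, and the median distance from element to cluster midpoint was 94 bases. The other elements lay within the clusters of PRE3, PRE7, RPT6 and RPN9. In the 300 bases before the strongest cluster, 23 of the 32 subunit genes (71.9%) had PACE, against 1.49% of the 4763 genes for which that window could be read. The start clusters themselves were of ordinary shape. They were 71 to 363 bases wide with a median of 124, against a median of 122 over 4244 genes, and their midpoints had a median position of -40 from the coding start, against -39.5. In 32 of 33 members the strongest cluster covered the first base of the coding sequence, and RPN7 was the exception.

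**Figure D1:**
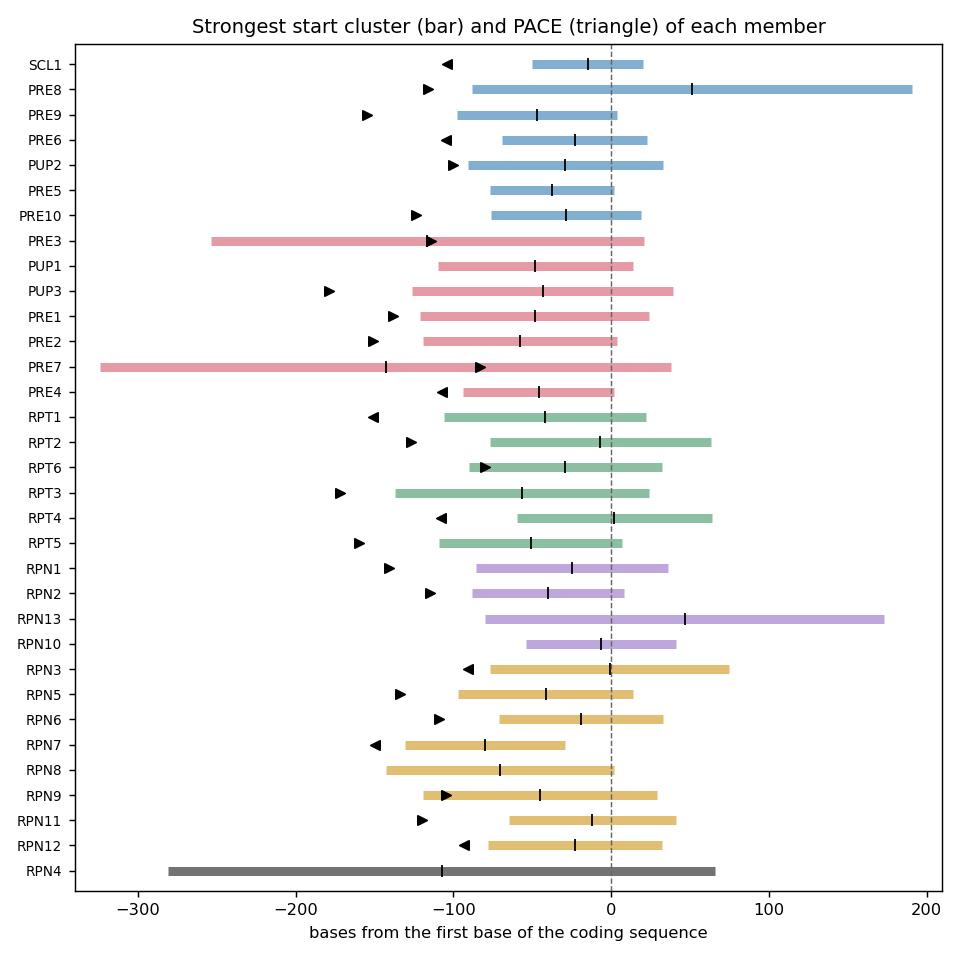
Position of the strongest start cluster (bars, coloured by subcomplex, with a tick at the midpoint) and of PACE (triangles, pointing in the direction of the element relative to the gene) for each of the 33 members, in bases from the first base of the coding sequence (dashed line). Most triangles sit just left of their bar, with first bases at -183 to -84, and PRE5, PUP1, RPN13, RPN10, RPN8 and RPN4 have none.

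RPN4 (YDL020C, chromosome IV 415113-416708, minus strand, 1 exon) had no PACE. It has a cluster 348 bases wide, from position -281 to position 66 of its coding sequence, which held nearly all of its CPM in every library. RPN4 is known to be under the heat shock factor Hsf1, the oxidative stress factor Yap1 and the drug resistance factors Pdr1 and Pdr3, so its promoter was searched for their elements on both strands. The 300 bases before its cluster held a heat shock element (GAA, TTC and GAA with 2 free bases between each, present in this window in 1.13% of genes) and a Yap1 element (TTACTAA, in 7.05% of genes). They began at positions -348 and -374 from the coding start and left 54 and 86 bases to the edge of the cluster. No match to TTAGTCA (3.80% of genes) or to TCCGCGGA (0.588%) was found there. Only these exact spellings were searched. The window printed below holds tccgtgga and tccacgga, which are close to TCCGCGGA and were not searched. The lack of a match therefore says nothing about Pdr1 and Pdr3. A further heat shock element began at position -21, inside the cluster. The upstream window is shown because RPN4 was the member whose level differed most between libraries. The Yap1 element and then the heat shock element, on the opposite strand, are in capitals.
RPN4 (chrIV:416990-417289, minus): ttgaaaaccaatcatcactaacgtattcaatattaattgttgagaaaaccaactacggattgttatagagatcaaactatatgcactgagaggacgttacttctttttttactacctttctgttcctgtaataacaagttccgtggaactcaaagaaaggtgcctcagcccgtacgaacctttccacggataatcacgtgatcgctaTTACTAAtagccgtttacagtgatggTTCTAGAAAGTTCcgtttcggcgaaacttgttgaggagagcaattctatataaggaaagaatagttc

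The RPN4 level in BY_DEH+ was 416 CPM with DEH and 133 CPM with glucose. In BY_DEH++ it was 189.9 CPM with DEH, 104 CPM with glucose and 70.2 CPM with mannitol. DEH was thus above glucose in both strains, and mannitol was the lowest of all libraries, with a 5.92-fold span from lowest to highest, the widest among the members. The DEH to glucose ratio was 3.13 (2.94 to 3.33) in BY_DEH+ and 1.83 (1.72 to 1.95) in BY_DEH++, log2 ratios of 1.64 and 0.87. The first is past the 2-fold limit and the second is not. These ratios were above those of 96.3% and 89.6% of all genes. Within DEH, BY_DEH++ had 0.457 (0.438 to 0.477) of the RPN4 level of BY_DEH+, a log2 ratio of -1.13. That call is lost under other scalings, at -0.90 with median-of-ratios factors. In glucose the strains differed less, with a ratio of 0.780 (0.722 to 0.843). Mannitol was below glucose by a ratio of 0.677 (0.619 to 0.741), a log2 ratio of -0.56, close to the median of all genes in that comparison.

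The subunit genes were expressed within a limited range of one another. CAGE counts a 5′ end once whatever the length of the RNA, so CPM values of different genes can be set side by side without dividing by length. The median over the subunit genes was 295 CPM for BY_DEH+ with DEH and 242 CPM with glucose, and for BY_DEH++ 227 CPM with DEH, 239 CPM with glucose and 196 CPM with mannitol. Together the 32 subunit genes took 1.05%, 0.780%, 0.761%, 0.824% and 0.619% of all gene CPM in the same order, highest in BY_DEH+ in DEH and lowest in mannitol. The standard deviation of log2 CPM over the subunit genes was 0.55 to 0.72 by library. RPT2, RPT4 or PRE10 had the lowest value in each library, at 88.0 to 147 CPM, and PRE5 the highest, at 518 to 1239 CPM.

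The top rank of PRE5 rests on how clusters were assigned. The deposited sums of PRE5, PRE6, PRE9, RPN7, PUP3 and PRE1 include the start cluster of a neighbouring gene downstream on the same strand. Clusters in the start window of the gene itself, from 500 bases before to 100 bases after the coding start, held 39.6% to 63.0% of the CPM of PRE5, 47.8% to 80.0% of PRE6, 57.1% to 78.3% of PRE9 and 57.9% to 78.4% of RPN7. The own window held 85.8% to 98.2% of PUP3 and 91.8% to 94.4% of PRE1. Of PRE4 it held 88.5% or more. In its own window PRE5 was at 490.3, 477, 323, 366 and 327 CPM, in the library order used above, and no longer stood above the other subunits in every library. Values below follow the deposited assignment. Own-window log2 ratios of DEH over glucose, in BY_DEH+ and then BY_DEH++, were 0.04 and -0.18 for PRE5, in place of 0.41 and -0.11. They were 0.36 and -0.18 for PRE6, in place of 0.34 and -0.01, and 0.46 and 0.03 for PRE9, in place of 0.09 and 0.00. They were 0.22 and -0.06 for RPN7, in place of 0.18 and -0.22. For PRE4 the BY_DEH+ value was 0.90 in place of 0.97, and for PUP3 the values were 0.20 and -0.66 in place of 0.23 and -0.60. For PRE1 they were 0.08 and -0.35 in place of 0.05 and -0.35.

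**Figure D2:**
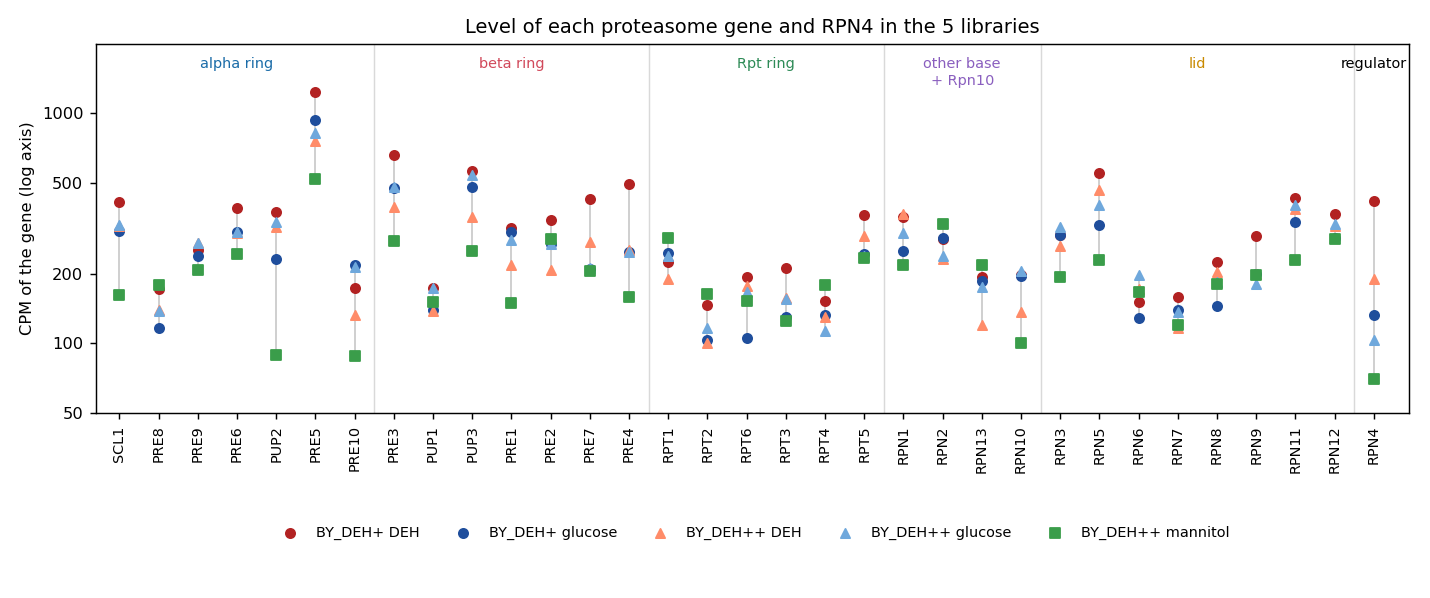
CPM (log axis) of each member in the 5 libraries, 1 point per library with no replicates, ordered by subcomplex, with a grey line from lowest to highest. RPN4 spans 5.92-fold and PUP2 4.18-fold, and the mannitol library (green squares) is lowest for most core genes but not for RPT1, RPT2, RPT4, RPN2, PRE8 and RPN13, where it is highest.

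Between DEH and glucose most proteasome genes differed by less than 2-fold, with most ratios above the median gene in BY_DEH+. In BY_DEH+ 2 of 33 members, RPN4 and PRE7, were 2-fold higher, beside 10.5% of all genes, and 0 were lower, beside 9.97%. In BY_DEH++ 0 members were higher and 0 lower, beside 8.69% and 10.8% of all genes. The count past 2-fold in both strains was 0 in either direction, beside 5.08% higher and 5.55% lower. The call counts were thus no higher than the share of all genes. The median log2 ratio of the members was 0.35 in BY_DEH+, beside 0.12 for all genes, and -0.03 in BY_DEH++, beside -0.11. In BY_DEH+ 30 of 33 members were above 0 and 25 above the median of all genes, and in BY_DEH++ 13 were above 0 and 19 above that median. Each strain has 1 library in DEH, so that the spread between cultures is unknown.

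The alpha ring, which gates the channel of the core, had a median log2 ratio of 0.41 in BY_DEH+ and -0.01 in BY_DEH++. PUP2, the fifth alpha subunit, had 371 and 232 CPM in BY_DEH+ (DEH, glucose) and 319, 338 and 88.6 CPM in BY_DEH++ (DEH, glucose, mannitol). DEH was above glucose in the first strain, with a ratio of 1.60 (1.52 to 1.69), and slightly below it in the second, at 0.943 (0.908 to 0.980). PRE8, the second alpha subunit, had 172 and 117 CPM in BY_DEH+ (DEH, glucose) and 139.6, 138 and 179 CPM in BY_DEH++ (DEH, glucose, mannitol). Its highest value was the one in mannitol. PRE9, the third alpha subunit and the one that yeast can live without, had 255 and 239.8 CPM in BY_DEH+ (DEH, glucose) and 273, 272 and 208 CPM in BY_DEH++ (DEH, glucose, mannitol). These deposited sums were nearly flat, but they include a neighbour's start cluster. In its own window PRE9 was at 189, 137, 207, 203 and 163 CPM in the same order, lowest in BY_DEH+ in glucose. PRE10, the seventh alpha subunit, had 174 and 219 CPM in BY_DEH+ (DEH, glucose) and 132, 216 and 88.0 CPM in BY_DEH++ (DEH, glucose, mannitol). It was the alpha gene that was lower in DEH than in glucose in both strains, with ratios of 0.794 (0.746 to 0.846) and 0.614 (0.583 to 0.648). The other alpha genes ranged from 163 to 411 CPM for SCL1, from 245 to 387 CPM for PRE6 and from 518 to 1239 CPM for PRE5, each with its lowest deposited value in mannitol and its highest in BY_DEH+ in DEH. In its own window PRE5 was lowest in BY_DEH++ in DEH, at 323 CPM, beside 327 CPM in mannitol. The cluster of DIA1 counted in its sum was at 17.6 CPM in mannitol and 177 to 222 CPM elsewhere.

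The beta ring, which carries the proteolytic sites, had a median log2 ratio of 0.35 in BY_DEH+ and -0.33 in BY_DEH++. PRE7, the sixth beta subunit, had 424 and 211 CPM in BY_DEH+ (DEH, glucose) and 276, 212 and 207 CPM in BY_DEH++ (DEH, glucose, mannitol). Its ratio of 2.01 (1.90 to 2.12) in BY_DEH+ lies at the limit, with a log2 ratio of 1.001. PRE4, the seventh beta subunit, stood just outside it, at 491 and 251 CPM, a ratio of 1.96 (1.87 to 2.06). With either other scaling PRE7 was also outside, at 0.91. In BY_DEH++ PRE4 was at 255, 249.7 and 159 CPM, level between DEH and glucose. PUP3, the third beta subunit, had 560.4 and 477 CPM in BY_DEH+ (DEH, glucose) and 355, 538 and 251 CPM in BY_DEH++ (DEH, glucose, mannitol). PRE1, the fourth beta subunit, had 317 and 306 CPM in BY_DEH+ (DEH, glucose) and 220.0, 280.3 and 149 CPM in BY_DEH++ (DEH, glucose, mannitol). PUP3 was higher in DEH than in glucose in the first strain, by less than 2-fold, and lower in the second, while PRE1 was level in the first, within counting error, and lower in the second. The 3 genes of the active sites were, like PUP3, higher in the first strain and lower in the second. PRE3, for the caspase-like site, ranged from 278 to 662 CPM and had log2 ratios of 0.49 and -0.29 in the 2 strains. PUP1, for the trypsin-like site, ranged from 139 to 174 CPM, with 0.32 and -0.33. PRE2, for the chymotrypsin-like site, ranged from 209 to 344 CPM, with 0.35 and -0.37.

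The Rpt ring, the ATPases that unfold substrates, had a median log2 ratio of 0.54 in BY_DEH+ and 0.06 in BY_DEH++. RPT6 had 193 and 105 CPM in BY_DEH+ (DEH, glucose) and 178, 168 and 153 CPM in BY_DEH++ (DEH, glucose, mannitol). Glucose in BY_DEH+ was low for this gene compared with the other libraries, and the ratio was 1.83 (1.70 to 1.98) in BY_DEH+ and 1.06 (1.01 to 1.12) in BY_DEH++. RPT5 had 363 and 245 CPM in BY_DEH+ (DEH, glucose) and 293, 239 and 234 CPM in BY_DEH++ (DEH, glucose, mannitol), higher in DEH in both strains. RPT2, whose tail opens the gate of the core, had 147 and 103 CPM in BY_DEH+ (DEH, glucose) and 99.97, 116 and 163 CPM in BY_DEH++ (DEH, glucose, mannitol). RPT1 had 225 and 246 CPM in BY_DEH+ (DEH, glucose) and 190.3, 239 and 286 CPM in BY_DEH++ (DEH, glucose, mannitol), lower in DEH than in glucose in both strains. RPT3 ranged from 125 to 212 CPM and RPT4 from 113 to 180.2 CPM.

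The other base genes and RPN10, which encode scaffolds and ubiquitin receptors, had median log2 ratios of 0.04 and -0.29. RPN1, a scaffold that docks ubiquitin-like domains, had 355 and 253 CPM in BY_DEH+ (DEH, glucose) and 366, 302 and 219.9 CPM in BY_DEH++ (DEH, glucose, mannitol). It was higher in DEH in both strains, with ratios of 1.40 (1.33 to 1.48) and 1.21 (1.17 to 1.26). RPN2, the other large scaffold, had 283 and 286 CPM in BY_DEH+ (DEH, glucose) and 234, 239 and 332 CPM in BY_DEH++ (DEH, glucose, mannitol), so that DEH and glucose differed by no more than counting error in each strain. RPN13 had 195 and 187 CPM in BY_DEH+ (DEH, glucose) and 120.2, 176 and 219 CPM in BY_DEH++ (DEH, glucose, mannitol). RPN10 had 199 and 196 CPM in BY_DEH+ (DEH, glucose) and 137, 207 and 100.5 CPM in BY_DEH++ (DEH, glucose, mannitol). These 2 ubiquitin receptors, which are also the subunit genes without the core motif, were level between DEH and glucose in BY_DEH+ and lower in DEH in BY_DEH++, at 0.681 and 0.661 of the glucose value. RPN3 and PRE1, which carry PACE, were likewise level in BY_DEH+ and lower in DEH in BY_DEH++.

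The lid had median log2 ratios of 0.34 and -0.05. RPN5, a scaffold of the lid, had 548 and 325 CPM in BY_DEH+ (DEH, glucose) and 463, 398 and 229.6 CPM in BY_DEH++ (DEH, glucose, mannitol), higher in DEH in both strains and lowest in mannitol. RPN8, the partner of the deubiquitinase Rpn11, had 227 and 145 CPM in BY_DEH+ (DEH, glucose) and 204, 184 and 182 CPM in BY_DEH++ (DEH, glucose, mannitol). RPN3 had 296 and 295 CPM in BY_DEH+ (DEH, glucose) and 264, 320.1 and 194 CPM in BY_DEH++ (DEH, glucose, mannitol). RPN7 had 159 and 140.3 CPM in BY_DEH+ (DEH, glucose) and 117, 137 and 120.0 CPM in BY_DEH++ (DEH, glucose, mannitol), and in its own window at 96.4, 82.6, 76.1, 79.1 and 94.1 CPM. RPN3 was lowest in mannitol, at 0.607 (0.575 to 0.640) of glucose, and RPN7 had the narrower span. The other lid genes ranged from 129 to 199 CPM for RPN6, from 181 to 294 CPM for RPN9, from 230.2 to 427 CPM for RPN11, which encodes the deubiquitinase, and from 283 to 363 CPM for RPN12.

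The strains differed in how DEH stood to glucose in the members. The DEH to glucose log2 ratio was larger in BY_DEH+ than in BY_DEH++ in 33 of 33 members, while this was so in 62.7% of all genes. RPT4, at 0.2032 and 0.2031, differed least. The median difference between the strains was 0.49 for the members and 0.19 for all genes. The lists nearest to the proteasome had it too, in 18 of 19 assembly and associated factors, with a median of 0.64, and in 21 of 26 ubiquitin and Cdc48 genes, with a median of 0.46. Of the 33 members, 17 (51.5%) were above 0 in BY_DEH+ and below 0 in BY_DEH++, a pattern of 21.1% of all genes, 13 were above 0 in both and 3 below 0 in both. Counting only ratios whose counting intervals leave out 1 in both strains, 10 of 33 members were higher in BY_DEH+ and lower in BY_DEH++, beside 10.4% of all genes. With median-of-ratios or upper-quartile scaling the ratio was larger in BY_DEH+ in 30 of 33 members. With median-of-ratios scaling 8 members were above 0 in BY_DEH+ and below 0 in BY_DEH++, in place of 17. A further 17 were above 0 in both and 6 below 0 in both. These groups do not hold all 33 members, as they did before. The shares of all genes were not computed under these scalings, so the shares above do not apply to these counts. The difference has no replicate and was not tested, and the time in DEH and the OD600 also differed between the strains.

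**Figure D3:**
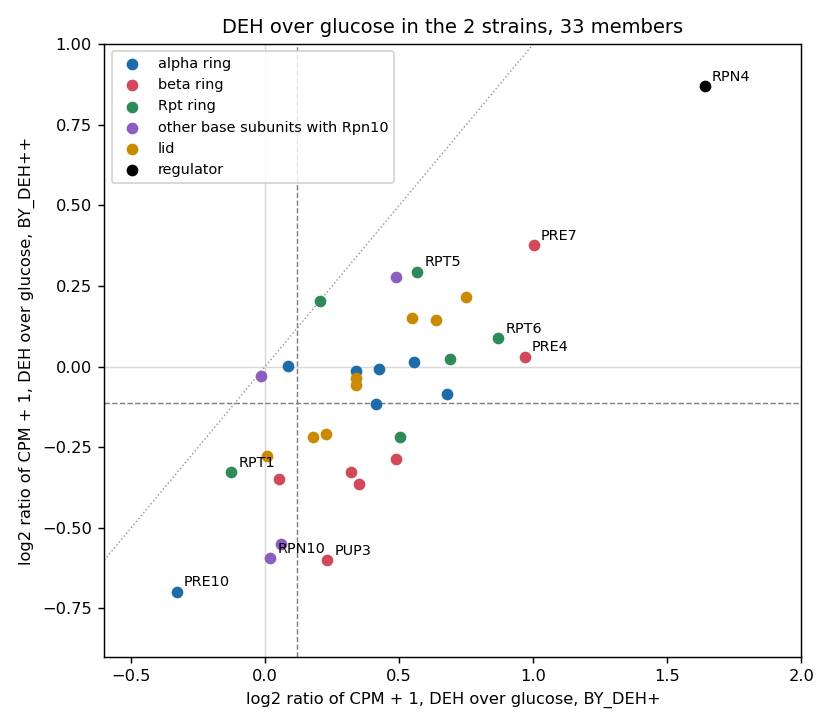
Log2 ratio of CPM + 1 of DEH over glucose in BY_DEH+ (horizontal) and in BY_DEH++ (vertical), 1 point per member, coloured by subcomplex, with the medians of all genes (0.12 and -0.11) as dashed lines and equal ratios as a dotted line. All 33 points lie on or below the dotted line, and RPN4 lies apart at 1.64 and 0.87.

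The comparison of the strains within one medium gives the same libraries in another order. In DEH 0 members were 2-fold higher in BY_DEH++ than in BY_DEH+, beside 5.22% of all genes, and 1, RPN4, was lower, beside 8.52%. The members' median log2 ratio was -0.34, beside -0.22 for all genes, and the beta ring had the lowest median of the subcomplexes, at -0.66. PRE4 was the subunit gene with the lowest ratio, at 0.519 (0.499 to 0.539). In its own window its log2 ratio was -0.77 in place of -0.94. In glucose 0 members were higher and 0 lower, beside 0.673% and 1.12% of all genes, and the members' median was 0.08. RPT6, at 1.59 (1.47 to 1.71), and RPN6, at 1.54 (1.44 to 1.65), had the largest ratios.

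In mannitol the core and the regulatory particle stood differently to glucose. Of the 33 members 4 were 2-fold lower in mannitol than in glucose in BY_DEH++, namely PUP2, PRE10, PUP3 and RPN10, beside 27.0% of all genes, and 0 were higher, beside 9.89%. The count of lower members is below the share of all genes. Mannitol set most genes lower on the CPM scale, with a median log2 ratio of -0.46 over all genes. With median-of-ratios scaling that median moves to -0.04, the share of higher calls among all calls goes from 26.8% to 51.7%, and the members' median goes from -0.31 to 0.12. Values relative to the median gene are therefore given for the groups.

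The core genes had a median log2 ratio of -0.66, which is -0.19 relative to the median gene, with 6 of 14 above that gene. The regulatory particle had a median of -0.16, which is 0.30 relative to it, with 14 of 18 above it. The Rpt ring stood highest, with a median of 0.12, or 0.58 relative to the median gene, and 6 of 6 genes above it. With median-of-ratios scaling these relative values were -0.18, 0.31 and 0.59. When clusters assigned to several genes were left out, 12 core genes kept a value and their relative median turned to 0.16, while that of the regulatory particle was 0.35. The genes lost were PUP3 and PRE1, whose log2 ratios had been -1.10 and -0.91. PRE6 was left mainly with the start cluster of a neighbouring gene. As a share of the CPM of all subunit genes, the alpha ring was at 27.7% to 28.6% in the 4 DEH and glucose libraries and at 22.6% in mannitol, and the Rpt ring at 11.7% to 12.9% and at 17.3%.

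Individual members showed the spread within each ring. PUP2 had the lowest mannitol to glucose ratio, 0.262 (0.244 to 0.281), and it was called lower under either other scaling. PRE10 was at 0.408 (0.378 to 0.440), PUP3 at 0.467 (0.446 to 0.488) and RPN10 at 0.486 (0.452 to 0.522), and each of these calls is lost with median-of-ratios scaling. SCL1 stood just outside the limit, with a log2 ratio of -0.998. PRE8 was the alpha gene on the other side, at 1.30 (1.21 to 1.38) times glucose. RPT4 was the highest member, at 1.60 (1.49 to 1.71), and was called higher with median-of-ratios scaling. RPT2, at a log2 ratio of 0.48, and RPN2, at 1.39 (1.32 to 1.46), followed. In the genes' own windows PRE6 was at a log2 ratio of -1.05 in place of -0.31, PRE5 at -0.16 in place of -0.67 and RPN7 at 0.25 in place of -0.19. With SCL1 at -1.01, 4 of 7 alpha genes were then lower, beside 29.1% of all genes in start windows. PRE6 and SCL1 are just past the limit there, and the other scalings were not applied to start windows. PRE6 also turned to 1.04 when clusters of several genes were left out, since its own start cluster is shared in the table with another gene.

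**Figure D4:**
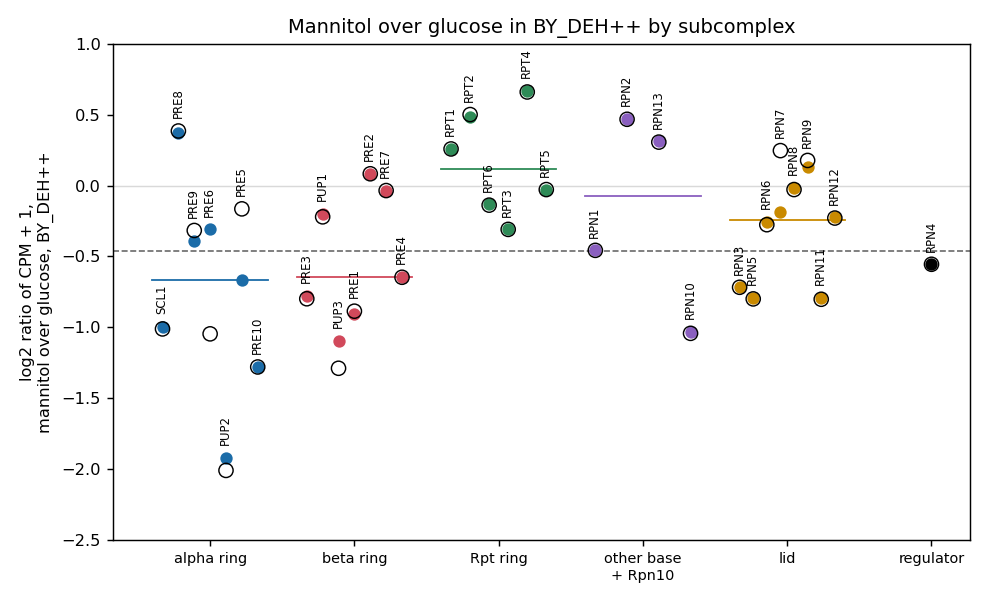
Log2 ratio of CPM + 1 of mannitol over glucose in BY_DEH++ for each member by subcomplex (filled points, deposited assignment; open circles, clusters in the gene's own start window), with the median of each subcomplex as a line and the median of all genes (-0.46) dashed. All 6 Rpt genes lie above the dashed line, and PUP2 lies lowest, at -1.92.

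Directly set against mannitol, DEH in BY_DEH++ gave 3 members that were 2-fold higher, PUP2, RPN4 and RPN5, beside 20.7% of all genes, and 0 that were lower, beside 9.07%. This comparison shares its DEH library with the one against glucose and its mannitol library with the one above. PUP2 was at 3.60 (3.36 to 3.86) times its mannitol level, RPN4 at 2.71 (2.50 to 2.93) and RPN5 at 2.02 (1.93 to 2.11). RPN5 is just inside the limit, and SCL1, with a log2 ratio of 0.99, just outside. At the other end RPN13 had a log2 ratio of -0.86 and RPT2 -0.70. The members' median was 0.33 and that of all genes 0.32. With median-of-ratios scaling the latter becomes -0.01, the share of higher calls goes from 69.5% to 44.8%, RPN13 and RPT2 are called lower, and RPN5 is no longer called.

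The subunit genes with and without PACE were set side by side, and a link between PACE and the ratios was not tested. The 27 genes with PACE had a median DEH to glucose log2 ratio of 0.35 in BY_DEH+ and -0.03 in BY_DEH++, and the 5 without it 0.32 and -0.33. In mannitol the medians were -0.31 and -0.20. The ranges of both groups overlapped in each of these comparisons, and 5 genes are few. Of the 5, PRE5, PUP1 and RPN8 hold the core, and the PRE5 sum includes clusters of neighbouring genes.

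Genes around the proteasome were followed through lists of known factors. The first held 19 genes, assembly chaperones and associated proteins together with SEM1, a small lid subunit that is not among the members. Of these, 3 were 2-fold higher in DEH in BY_DEH+ and 0 lower. In BY_DEH++ 0 were higher and 1 lower in DEH, and 2 higher and 4 lower in mannitol against glucose. The shares of all genes, given above, were 10.5% and 9.97%, 8.69% and 10.8%, and 9.89% and 27.0%. Of 26 genes of the ubiquitin and Cdc48 pathway the counts were 3 and 0, 0 and 1, and 0 and 3. Of the 4 factors that act on RPN4 they were 0 and 0, 0 and 0, and 0 and 1. All these counts follow the deposited assignment. DOA4, a gene of the ubiquitin list called higher in BY_DEH+, was at 546 and 134.5 CPM there (DEH, glucose). Its own start window held 66.0 and 52.5 CPM of these, 12.1% and 39.0%, so that call rests on other clusters. No gene of these lists was past 2-fold with the same sign in DEH in both strains, beside 5.08% higher and 5.55% lower over all genes. SEM1, named after its values were seen, was among the higher genes in BY_DEH+ and in mannitol. It had 367 and 175 CPM in BY_DEH+ (DEH, glucose) and 211, 174 and 398 CPM in BY_DEH++ (DEH, glucose, mannitol). PACE was found in 1 of the 19, 3 of the 26 and 1 of the 4, beside 1.20% of all genes. In the 300 bases before the strongest cluster it was found in 1 of 18, 1 of 26 and 0 of 4, beside 1.49%.

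POC4, an assembly chaperone of the alpha ring, had 13.7 and 20.4 CPM in BY_DEH+ (DEH, glucose) and 12.8, 16.4 and 60.3 CPM in BY_DEH++ (DEH, glucose, mannitol). It stood out in mannitol, at 3.69 (3.16 to 4.33) times glucose. Of the 7 alpha genes 0 were called higher and 2 lower there, beside 9.89% and 27.0% of all genes. The count of lower alpha genes depends on the assignment of clusters, as given above. ADD66, another chaperone of the alpha ring, had 37.7 and 56.1 CPM in BY_DEH+ (DEH, glucose) and 32.8, 69.5 and 25.2 CPM in BY_DEH++ (DEH, glucose, mannitol), with a mannitol to glucose ratio of 0.363 (0.315 to 0.417). UBI4, the polyubiquitin gene induced by stress, had 3456 and 2463 CPM in BY_DEH+ (DEH, glucose) and 1338, 1650 and 428 CPM in BY_DEH++ (DEH, glucose, mannitol). Its ratio in mannitol was 0.260 (0.251 to 0.268), and its strains lay on opposite sides in DEH, as in many members. RAD6, a ubiquitin-conjugating enzyme, was at 46.8 CPM in mannitol and at 125 to 159.9 CPM elsewhere. Among the factors acting on RPN4, HSF1 had 81.4 and 96.3 CPM in BY_DEH+ (DEH, glucose) and 47.8, 70.0 and 38.5 CPM in BY_DEH++ (DEH, glucose, mannitol), and PDR3 was at 59.9 CPM in mannitol and at 117 to 289.6 CPM elsewhere. Both were lower in DEH than in glucose in each strain, while RPN4 was higher. The other factors of this list, named after their values were seen, were higher in DEH in each strain, with log2 ratios of 0.88 and 0.13 for YAP1 and of 0.83 and 0.42 for PDR1. The own-window share was 95.3% or more for HSF1 and 49.6% to 72.6% for PDR3, so the PDR3 values also hold other clusters.

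Start site use gave little beyond the assignment of clusters. The 33 members had 166 clusters in the deposited table, of which 41 averaged 10 CPM or more. With the deposited assignment 9 members had at least 2 clusters past 10 CPM, and in 4 of them, PRE9, PRE6, PRE5 and RPN7, the share of the strongest cluster moved by 20 percentage points or more, or another cluster became the strongest. All 4 are among the genes whose sums include a neighbour's start cluster, while PUP3 and PRE1, whose sums also include one, did not shift. Counting clusters of the gene's own window alone, a choice made after seeing the data, left 1 gene with 2 such clusters, PRE3, and 0 that shifted. The share of the strongest cluster of PRE3 was then 97.6% to 100% in every library.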

How the data were processed

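The authors deposited one table of CAGE consensus clusters with a normalised signal per library, scaled to CPM per its file name. Signal is the unit recorded, where CPM had been planned for, since clusters of several genes are repeated and column sums exceed the CPM total. The submitters' processing notes name BWA, HISAT2 and the build mm9, a mouse build; cluster names fit all 16 sequences of yeast R64, which was used here. The clustering tool, filters and rule of assignment are not given in the sources used here. No use of molecular identifiers is stated.

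Reads were recovered from the step between low values (whole within 0.15 of a read). Starts were shifted by 1 base after a check of 204 clusters of 1 base, 65.7% of which then began on a purine after a pyrimidine, against 7.84%. Gene CPM was summed over assigned clusters, with a filter of 10 CPM in at least 1 library, a pseudocount of 1 and a 2-fold limit. Ratio intervals are exact binomial 95% intervals. Medians and counts over all 4904 genes stand beside those of the members. Alternatives were other fold limits, pseudocount, filter, scalings, cluster choices and a binomial test of reads. Members and lists were chosen with earlier results of these data known. Full values went to RPN4, to the members with the 2 highest and 2 lowest mean DEH ratios in each subcomplex, and to list genes past 2-fold in both strains or with the 2 largest mannitol ratios. Promoter windows were read from the R64 genome. No deposited column was unused (0). The steps were tested on simulated data. Python 3.11.15, pandas 2.3.3, numpy 2.4.6, scipy 1.17.1 and matplotlib 3.10.9 were used.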

Additional observations from a re-analysis of the deposited data

Results flagged for a closer look

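In 10 of 33 members the DEH to glucose ratio lay on opposite sides of 1 in the 2 strains, higher in BY_DEH+ and lower in BY_DEH++, with counting intervals that leave out 1 in both. By the same criterion this was so in 508 of 4904 genes (10.4%). With 1 library per group the difference was not tested. The difference of the log2 ratios, BY_DEH+ minus BY_DEH++, was largest for 2 beta genes, at 0.8307 for PUP3 and 0.7761 for PRE3. It was 0.7606 for PUP2, 0.7225 for RPT2, 0.7144 for PRE2 and 0.6462 for PUP1. It was 0.5272 for PRE5 and 0.3993 for RPN7, whose sums include clusters of neighbouring genes. In their own start windows, an alternative chosen after seeing the data, the difference was 0.22 for PRE5 and 0.28 for RPN7, and a counting interval of each then held 1, while PRE6 and PRE1 met the criterion, so that the count was again 10. It was 0.4355 for RPN6 and 0.3929 for RPN11, both of the lid. With median-of-ratios scaling 8 of the 10 were still on opposite sides, and with upper-quartile scaling 10 were.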

How the results depend on the processing

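No paired analysis was possible because each group is 1 library and no replicate numbers are shared; for the same reason no library could be left out of a group. At a 4-fold limit 0 members were higher in DEH than in glucose in BY_DEH+, 0 lower in mannitol, 0 higher in DEH than in mannitol and 0 lower in BY_DEH++ than in BY_DEH+ in DEH. The shares of all genes at 4-fold were 2.28%, 6.28%, 4.2% and 1.59% in that order. At 1.5-fold 8 were higher in DEH in BY_DEH+, 1 higher and 3 lower in BY_DEH++ and 1 higher in both; 1 was higher and 12 lower in mannitol, 8 higher and 3 lower in DEH against mannitol, 8 lower in BY_DEH++ in DEH and 2 higher in glucose. The shares of all genes at 1.5-fold were 23.5% higher in DEH in BY_DEH+, 16.4% higher and 23.2% lower in BY_DEH++, 10.7% higher in both, 15.5% higher and 44.3% lower in mannitol, 37.8% and 16.7% in DEH against mannitol, 24.1% lower in BY_DEH++ in DEH and 3.55% higher in glucose. A pseudocount of 10 left 1 higher in DEH in BY_DEH+, beside 8.22% of all genes. Median-of-ratios scaling gave 1 higher in DEH in BY_DEH+, 1 higher and 1 lower in mannitol, 2 lower in DEH against mannitol and 0 lower in BY_DEH++ in DEH. The shares of all genes were then 9.01%, 15.8% and 14.7%, 14.6% and 5.24%. Upper-quartile scaling gave 1 higher in DEH in BY_DEH+, 2 lower in mannitol, 1 lower in DEH against mannitol and 0 lower in BY_DEH++ in DEH. The shares of all genes were then 9.05%, 19.4%, 12.8% and 6.65%. Without clusters of several genes 1 member was higher in mannitol, beside 8.96% of all genes. With a 30-point limit 2 members shifted start sites, and with own windows, chosen after seeing the data, 0. The cause of these moves was not tested. No filter and the binomial test of reads left all member counts as they were. Median-of-ratios scaling moved the share of higher calls over all genes from 38.0% to 61.9% between strains in DEH. Start windows gave 6 members lower in mannitol in place of 4, beside 29.1% in place of 27.0% of all genes. The other 118 values stayed within 1.5 times. Depth limits little here, since the lowest member level, 70.2 CPM, has a counting error far below 2-fold; the missing replicates limit every comparison.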

Other observations

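PRE4 had a second cluster in the table, 130 bases wide, at positions -1052 to -923 from its coding start, that is also assigned to RET2. It lies at chromosome VI 250789-250918 on the minus strand in R64. It was at 53.2 CPM in BY_DEH+ in DEH and 15.2 CPM in BY_DEH+ in glucose, at 0.83 CPM in BY_DEH++ in glucose, and was listed at 0 in BY_DEH++ in DEH and in mannitol. Both BY_DEH+ libraries thus held it well above the BY_DEH++ libraries, with no replicate of either strain. It was chosen after its values were seen.

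Of the genes around the proteasome, 2 had the largest DEH to glucose ratios of their lists in BY_DEH+ and were likewise chosen after their values were seen. SPG5, a proteasome regulator of stationary phase, had 2922 and 374 CPM in BY_DEH+ (DEH, glucose), a ratio of 7.82 (7.55 to 8.09), and 489, 383 and 182 CPM in BY_DEH++ (DEH, glucose, mannitol). UBC5, a ubiquitin-conjugating enzyme of stress, had 965 and 214 CPM in BY_DEH+, a ratio of 4.52 (4.31 to 4.74), and 368, 187 and 141 CPM in BY_DEH++. Both were highest in the culture that stood longest, and the part of culture time in this was not tested.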
